A study of Mus musculus with 6 samples.

Results

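The cytokine genes described here are those with which antigen presenting cells steer T helper cells, among them the signals toward interleukin-17 production. The set holds the interleukin-12 family genes Il12a, Il12b, Il23a, Il27 and Ebi3, the interleukin-6 gene Il6, and the transforming growth factor beta genes Tgfb1, Tgfb2 and Tgfb3. Members were taken by gene symbol, 9 in all, out of 19057 genes named on the array, and each was read from the brightest of its probes by the mean over the 6 arrays. Of the 9, 8 had a probe, and Il12b, which had none paired with it, was not analysed here. Expression had been measured on 6 Illumina arrays of RNA from antigen presenting cells of the lung, 2 arrays in each of 3 groups. The Spp1-/- smoke group came from mice lacking Spp1, the gene of the secreted protein osteopontin, that had received cigarette smoke for 4 months. The WT smoke group came from wild type mice with the same exposure, and the WT Air group from wild type mice in room air. All 3 groups were female C57BL/6 mice. There was no Spp1-/- group in air, so a smoke effect within that genotype was not measured. Spp1 itself was paired with no probe, so the genotype labels were not checked against it. The method by which these cells were isolated was not given in the sources used here.

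Interleukin-12 family cytokines are pairs of subunits that are shared among them. Il12b encodes the subunit common to interleukin-12 and interleukin-23, to which Il12a and Il23a add the partner that gives each its identity. Ebi3 pairs with the Il27 product to make interleukin-27 and with the Il12a product to make interleukin-35. Interleukin-6 together with TGF-beta starts Th17 differentiation of naive T cells, and interleukin-23 maintains Th17 cells, whereas interleukin-27 and interleukin-35 restrain them. The 3 TGF-beta isoforms are secreted in a latent form and act only once activated.

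Promoters show how differently these genes begin. The 250 bases before the transcription start are printed for Ebi3, Tgfb1 and Tgfb2, and for Il6, which shares a motif position with Ebi3. They come from RefSeq, build GRCm38.p6, whose promoter table held 6 of the 9 members, and capitals mark every match to a searched motif.
Ebi3: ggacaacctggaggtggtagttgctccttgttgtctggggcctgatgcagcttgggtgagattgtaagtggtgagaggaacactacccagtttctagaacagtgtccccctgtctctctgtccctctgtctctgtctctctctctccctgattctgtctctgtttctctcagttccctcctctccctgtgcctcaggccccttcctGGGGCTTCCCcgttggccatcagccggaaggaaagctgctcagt
Il6: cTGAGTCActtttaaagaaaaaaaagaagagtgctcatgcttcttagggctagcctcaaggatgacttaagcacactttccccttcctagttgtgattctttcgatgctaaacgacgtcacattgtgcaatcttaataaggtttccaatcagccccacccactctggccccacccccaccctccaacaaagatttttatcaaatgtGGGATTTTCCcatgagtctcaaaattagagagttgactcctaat
Tgfb1: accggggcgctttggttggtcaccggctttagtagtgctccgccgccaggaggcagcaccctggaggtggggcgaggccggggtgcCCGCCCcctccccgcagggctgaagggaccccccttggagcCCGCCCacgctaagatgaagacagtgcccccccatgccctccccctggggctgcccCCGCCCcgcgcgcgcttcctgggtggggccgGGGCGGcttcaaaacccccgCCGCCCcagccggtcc
Tgfb2: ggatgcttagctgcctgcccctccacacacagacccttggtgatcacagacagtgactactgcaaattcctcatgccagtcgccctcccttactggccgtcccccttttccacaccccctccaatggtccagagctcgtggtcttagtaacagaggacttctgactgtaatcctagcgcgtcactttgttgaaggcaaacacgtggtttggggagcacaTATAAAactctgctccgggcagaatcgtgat
The Ebi3 window is chr17:55952373-55952622 on the plus strand, Il6 is chr5:30012864-30013113 on the plus strand, Tgfb1 is chr7:25686752-25687001 on the plus strand and Tgfb2 is chr1:186705990-186706239 on the minus strand, each written in the direction of transcription. Both strands were searched for the NF-kB consensus, AP-1 (TGANTCA), CRE (TGACGTCA), ISRE, GC box (GGGCGG) and TATA box (TATAAA) motifs, and no 2 of the matches overlapped. Ebi3 and Il6 each held 1 NF-kB match, in both at positions -44 to -35 from the start, and 3.9% of the 32851 mouse promoter windows of this length held such a match. Il6 also held an AP-1 match at -249 to -243, present in 6.75% of windows. Tgfb1 held 5 GC boxes and had 75.2% G and C, against a median of 52.4% over all windows, of which 32.7% held a GC box. Tgfb2 had 53.6% G and C and 1 TATA box at -31 to -26, a motif in 12.4% of windows. A match describes the letters in these windows and no binding.

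The deposited values are log2 intensities from 6.619, the floor, to 16.014, with a median of 7.264 on every array. Genes whose mean reached 7.274, the median over probes, were compared, 12382 in all. Replicate arrays correlated over all probes with Pearson r = 0.9936 in Spp1-/- smoke, 0.9917 in WT smoke and 0.9773 in WT Air. Whether the arrays of a group are separate mice was not stated, so the p-values rest only on the spread between these arrays, and that spread may be technical. All 12 markers fixed for antigen presenting cells lay above the line, with a mean log2 intensity of 11.58 to 11.65 in Spp1-/- smoke, 11.55 to 11.66 in WT smoke and 11.61 to 11.78 in WT Air. Their mean hides opposite moves. With limma, 2 of the 12 markers were higher and 5 lower in WT smoke than in WT Air (adjusted p under 0.05, median log2 difference -0.32). Of all genes compared, 11.1% were higher and 10.3% lower. Itgax, an integrin of macrophages and dendritic cells, differed by 0.84 (limma adjusted p = 0.00988). Cd74, the invariant chain of MHC class II, differed by -0.97 (limma adjusted p = 0.00819). Fewer of the 12 were called with a WT smoke or an Spp1-/- array left out. Calls over all genes fell in those fits too, which bears on every such count given for a list below.

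Of the 8 measured cytokine genes, 5 lay above the line (Il12a, Ebi3, Tgfb1, Tgfb2 and Tgfb3) and 3 lay near the floor (Il23a, Il27 and Il6). Il12a was just inside the line at a mean of 7.42, and Il23a just outside it at 7.27. In order of signal, Tgfb1 stood at percentile 83.4 of all probes, Ebi3 at 80.2, Tgfb2 at 72.5, Tgfb3 at 71.8, Il12a at 60.3, Il23a at 49.3, Il27 at 43.0 and Il6 at 39.9. Probes bind with different strength, so this order says how far each signal stood above the floor and does not rank transcripts.

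**Figure D1:**
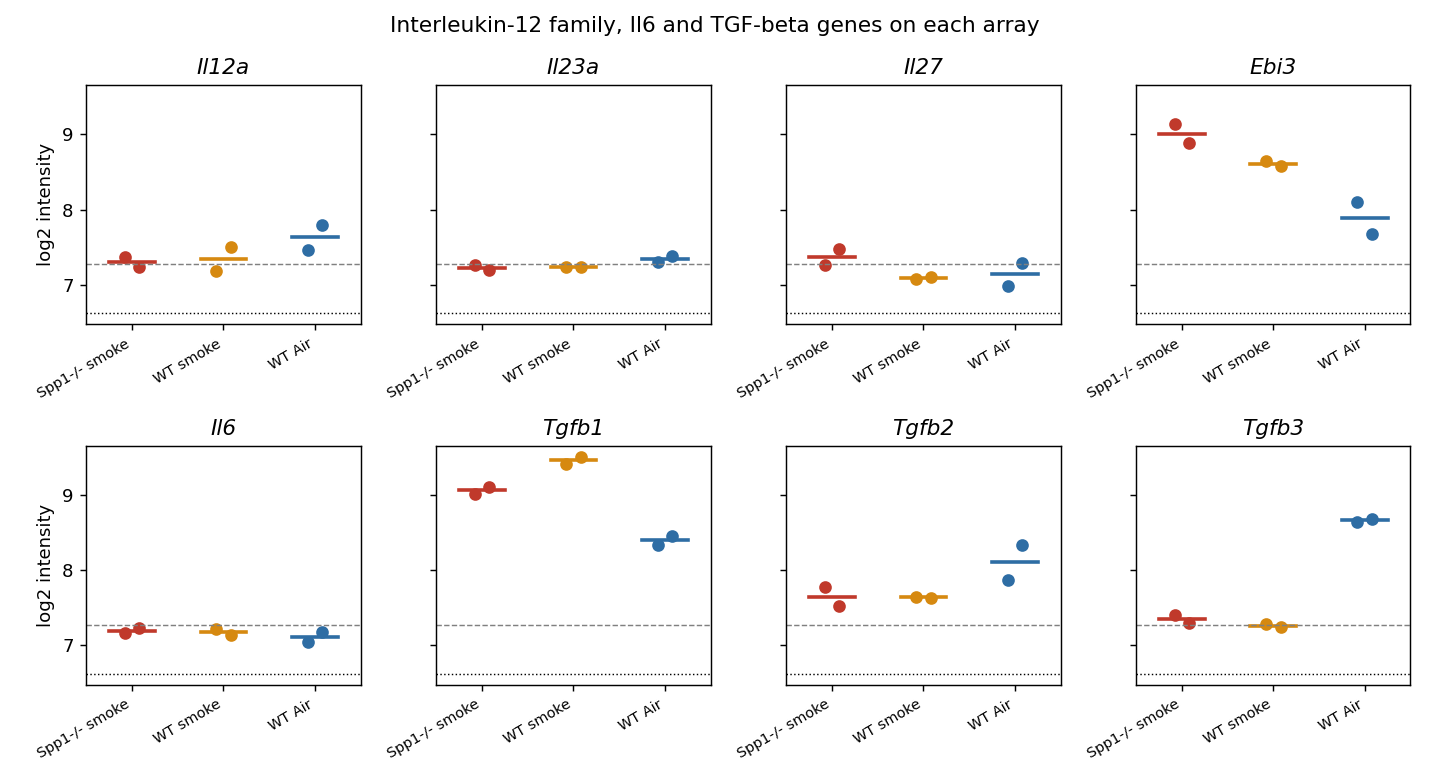
Log2 intensity of the 8 measured cytokine genes on each array, with dots for arrays and bars for group means (n = 2 each) in Spp1-/- smoke, WT smoke and WT Air. The dashed line is the filter line of 7.274 and the dotted line the floor of 6.619. Tgfb1 and Ebi3 lie higher in both smoke groups than in WT Air, Tgfb3 lies lower, and Il6 and Il23a stay near the dashed line throughout.

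The first comparison asked how the cytokine genes differed between smoke and air in wild type mice. Tgfb1 and Ebi3 were higher after smoke by 2.10-fold and 1.65-fold, and Tgfb3 was lower by 2.65-fold. Il12a and Tgfb2 did not pass the test, and Il23a, Il27 and Il6 gave signals too close to the floor to separate. At a limma adjusted p under 0.05 over all 12382 genes, 2 of the 5 compared members were higher and 1 was lower, where 21.4% of all genes were called, 11.1% higher and 10.3% lower. In arrays of bulk RNA, fewer cells of a type and less RNA per cell cannot be told apart.

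Tgfb1 encodes the TGF-beta isoform best known from immune cells, where it takes part both in tolerance and in Th17 differentiation. Its log2 intensity was 9.42 and 9.52 in WT smoke, against 8.34 and 8.45 in WT Air. Both smoke arrays lay above both air arrays, with small gaps within groups beside the distance between them. The means were 9.47 ± 0.07 in WT smoke and 8.40 ± 0.08 in WT Air (SD, n = 2 each), and the log2 difference was 1.07 ± 0.10 (SE, 95% interval 0.80 to 1.34, limma adjusted p = 0.00389). It passed with any 1 array left out, at log2 differences from 1.01 to 1.13 and limma adjusted p of at most 0.0371.

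Tgfb3 encodes the isoform prominent in mesenchymal tissues and in development, which in mouse T cells has also been tied to strongly pathogenic Th17 cells. It had 7.28 and 7.24 in WT smoke, against 8.65 and 8.69 in WT Air. The smoke arrays sat at the filter line and the air arrays well above it, with no overlap. The log2 difference was -1.40 ± 0.10 (SE, 95% interval -1.65 to -1.16, limma adjusted p = 0.00206), and it passed with any 1 array left out (adjusted p at most 0.0274). Because the smoke values were near the floor, the size depends on it: with the floor removed the log2 difference was -2.19.

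Tgfb2, the third isoform, had 7.65 and 7.63 in WT smoke, against 7.87 and 8.34 in WT Air. The smoke arrays were lower than both air arrays, which lay far from each other. The log2 difference of -0.46 (95% interval -0.93 to 0.01) did not pass (limma adjusted p = 0.149). Without WT Air replicate 1 it was -0.70 with an adjusted p of 0.0244.

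Ebi3, the shared partner of interleukin-27 and interleukin-35, had 8.64 and 8.58 in WT smoke, against 8.10 and 7.68 in WT Air. The smoke arrays nearly coincided and lay above both air arrays. The means were 8.61 ± 0.05 in WT smoke and 7.89 ± 0.30 in WT Air (SD, n = 2 each), and the log2 difference was 0.72 ± 0.18 (SE, 95% interval 0.27 to 1.17, limma adjusted p = 0.0437). This call was close to the threshold: the limma adjusted p was 0.0726 without WT Air replicate 2, 0.191 without WT smoke replicate 1, 0.158 without WT smoke replicate 2 and 0.0818 without either Spp1-/- array, and the smallest log2 difference among these was 0.51. It also missed without the filter on dim probes (limma adjusted p = 0.0605) and with array weights (limma adjusted p = 0.0555). With an intensity trend in the prior the limma adjusted p was 0.0581, and with only the 2 groups fitted 0.0818. The fit without either Spp1-/- array equals that 2-group fit, because an Spp1-/- array left alone adds nothing to the spread.

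The partners of Ebi3 and the other subunit gene of the family did not follow it past the test. Il12a, whose product pairs with Ebi3 in interleukin-35, had 7.18 and 7.50 in WT smoke, against 7.46 and 7.79 in WT Air. The groups overlapped, and the log2 difference of -0.29 (95% interval -0.73 to 0.15) did not pass (limma adjusted p = 0.319). Il27, the other partner of Ebi3, had 7.07 and 7.09 in WT smoke, against 6.99 and 7.28 in WT Air, so the smoke arrays fell between the air arrays. Il23a had 7.23 and 7.24 in WT smoke, against 7.29 and 7.38 in WT Air, and its second probe was dimmer still at a mean of 6.83. Although the Il23a arrays did not overlap, all of them lay within a narrow band around the line. In a fit with no filter, the log2 differences were -0.05 for Il27 (limma adjusted p = 0.877) and -0.10 for Il23a (limma adjusted p = 0.453).

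Il6, the cytokine that with TGF-beta opens the Th17 program, had 7.21 and 7.14 in WT smoke, against 7.05 and 7.18 in WT Air. The groups overlapped and every array lay below the line. Its log2 difference in the fit with no filter was 0.06 (95% interval -0.14 to 0.26, limma adjusted p = 0.733), and at such a signal a difference was not detectable here rather than shown to be absent.

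**Figure D2:**
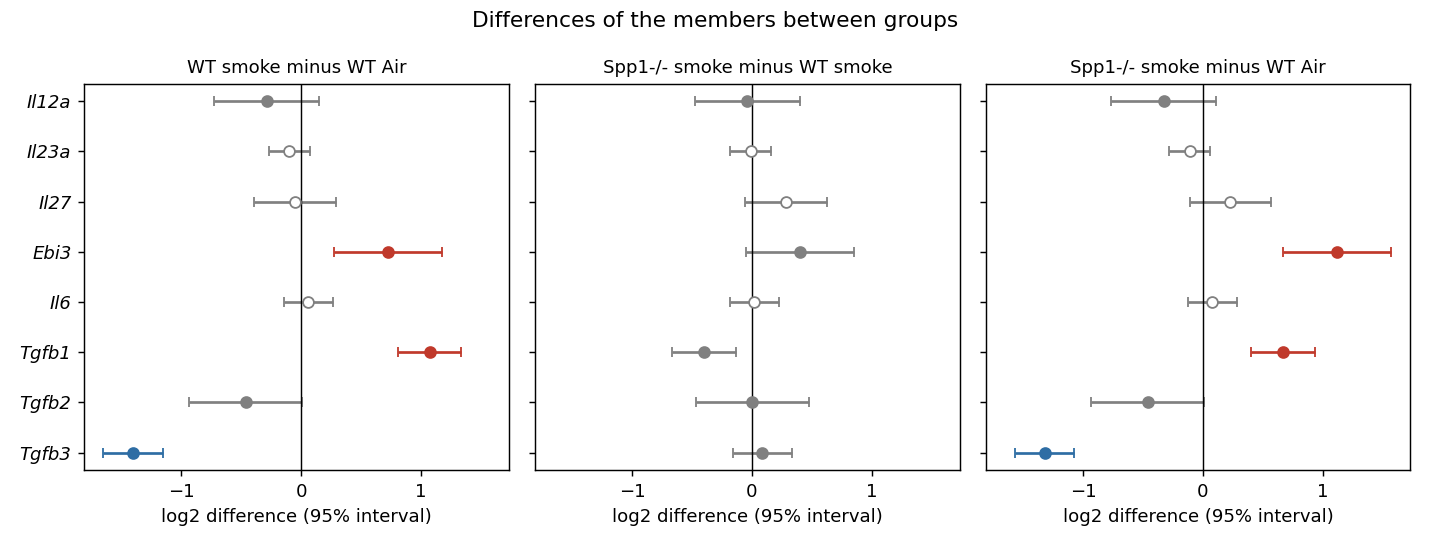
Log2 differences of the 8 genes in the 3 comparisons, with 95% intervals from limma. Red and blue mark genes higher and lower at an adjusted p under 0.05, grey marks those that did not pass, and open circles mark the 3 genes near the floor, taken from the fit with no filter. Tgfb1 at 1.07 and Tgfb3 at -1.40 stand farthest from 0 in the left panel, and no gene is coloured in the middle panel.

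The second comparison set Spp1-/- smoke against WT smoke, the genotype contrast under exposure. None of the 5 compared cytokine genes passed in limma, where 0% of all 12382 genes were called. At an unadjusted p under 0.05 stood 1 of the 5 members, Tgfb1, beside 4.36% of all genes (540). Every adjusted p of a member in this contrast was 1.

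Tgfb1 had 9.02 and 9.11 in Spp1-/- smoke, against 9.42 and 9.52 in WT smoke. Both Spp1-/- arrays lay below both wild type arrays, and still above the WT Air values of 8.34 and 8.45. The means were 9.06 ± 0.07 in Spp1-/- smoke and 9.47 ± 0.07 in WT smoke (SD, n = 2 each), for a log2 difference of -0.40 (95% interval -0.67 to -0.14, or 1.32-fold lower), which did not pass (limma adjusted p = 1).

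Ebi3 had 9.14 and 8.88 in Spp1-/- smoke, against 8.64 and 8.58 in WT smoke. The Spp1-/- arrays were both higher, but lay farther apart than the wild type arrays. The log2 difference of 0.40 had a 95% interval of -0.05 to 0.85 and did not pass (limma adjusted p = 1). Il27, its partner in interleukin-27, had 7.26 and 7.47 in Spp1-/- smoke, against 7.07 and 7.09 in WT smoke, without overlap. In the fit with no filter its log2 difference was 0.28 (95% interval -0.06 to 0.62), and only 1 of the 4 arrays lay clearly above the line.

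For the remaining members the Spp1-/- and wild type smoke arrays lay close together. Tgfb3 had 7.41 and 7.29 in Spp1-/- smoke, against 7.28 and 7.24 in WT smoke, and Tgfb2 had 7.77 and 7.52 in Spp1-/- smoke, against 7.65 and 7.63 in WT smoke. Their log2 differences were 0.09 (95% interval -0.16 to 0.33) and 0.0040 (95% interval -0.47 to 0.47). Tgfb3 lay at the filter line in both smoke groups, where the floor compresses differences and a lower level would hardly register, and its log2 difference was 0.18 with the floor removed. The interval of Tgfb2 is wide enough to hold a difference of the size seen with smoke. Il12a had 7.37 and 7.23 in Spp1-/- smoke, against 7.18 and 7.50 in WT smoke, with a log2 difference of -0.04 (95% interval -0.48 to 0.40). Il23a had 7.25 and 7.20 in Spp1-/- smoke, against 7.23 and 7.24 in WT smoke. Il6 had 7.16 and 7.23 in Spp1-/- smoke, against 7.21 and 7.14 in WT smoke. Both groups overlapped for Il12a, Il23a and Il6.

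The third comparison, Spp1-/- smoke against WT Air, changes genotype and exposure at once, which cannot be told apart in it. It shares the WT Air arrays with the first comparison and the Spp1-/- arrays with the second, so it repeats neither independently. Again 2 of the 5 compared members were higher and 1 lower, where limma called 22.6% of all genes, 12.2% higher and 10.5% lower. Tgfb1 averaged 9.06 ± 0.07 in Spp1-/- smoke and 8.40 ± 0.08 in WT Air (SD, n = 2 each), a 1.59-fold rise (log2 difference 0.67, limma adjusted p = 0.0128). Ebi3 averaged 9.01 ± 0.18 in Spp1-/- smoke and 7.89 ± 0.30 in WT Air (SD, n = 2 each), a 2.18-fold rise (log2 difference 1.12, limma adjusted p = 0.013). Tgfb3 averaged 7.35 ± 0.08 in Spp1-/- smoke and 8.67 ± 0.03 in WT Air (SD, n = 2 each), 2.49-fold lower (log2 difference -1.32, limma adjusted p = 0.00218; with the floor removed the log2 difference was -2.01). Tgfb2 at -0.46 (limma adjusted p = 0.149) and Il12a at -0.33 (limma adjusted p = 0.254) did not pass. The Ebi3 call missed the threshold without Spp1-/- smoke replicate 1 (limma adjusted p = 0.0838) or 2 (limma adjusted p = 0.0625), as did that of Tgfb1 (limma adjusted p = 0.0685 and 0.0967). Tgfb2 passed without WT Air replicate 1 (log2 difference -0.69, limma adjusted p = 0.0237).

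Of 7 receptor genes of the interleukin-12 family and interleukin-6, 4 lay above the line. Of these, 0 rose and 2 fell with smoke in wild type, beside 11.1% and 10.3% of all genes. The median log2 difference of the 4 was -0.79 against 0.04 over all kept genes. Il27ra, the receptor chain specific to interleukin-27, averaged 9.57 ± 0.17 in WT smoke and 10.68 ± 0.02 in WT Air (log2 difference -1.11, limma adjusted p = 0.0099). Il6st, the gp130 chain shared by interleukin-6 and interleukin-27, averaged 10.62 ± 0.08 in WT smoke and 11.07 ± 0.04 in WT Air (log2 difference -0.46, limma adjusted p = 0.0373). The Il6st call was close to the threshold and was lost under most alternatives, with a limma adjusted p of 0.0609 with the replicate block, 0.0721 with array weights, 0.0911 with an intensity trend, 0.0757 with the floor removed, 0.0579 with the mean of its probes, 0.0681 in the brighter 25% of probes and 0.0761 without WT Air replicate 2. Il6ra, the interleukin-6 receptor chain, averaged 7.20 ± 0.01 in WT smoke and 8.43 ± 0.77 in WT Air. Its log2 difference of -1.22 did not pass (limma adjusted p = 0.0655). Il12rb1, Il12rb2 and Il23r were near the floor. Without WT smoke replicate 1, or without either Spp1-/- array, 1 receptor gene was called, and without WT smoke replicate 2 none was (Il27ra at a limma adjusted p of 0.0641, Il6st at 0.178).

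JAK-STAT and SOCS genes carry and brake the signals of interleukin-6 and of the interleukin-12 family. Of 14 compared, 3 rose and 2 fell with smoke (median -0.02), beside 11.1% and 10.3% of all genes. Socs3, the feedback inhibitor that binds gp130, had the largest rise, with 11.39 ± 0.04 in WT smoke and 9.37 ± 0.12 in WT Air (log2 difference 2.02 ± 0.11 SE, limma adjusted p = 0.00157). Stat5a rose by 0.45 (limma adjusted p = 0.036). Ptpn11, a phosphatase that docks on gp130, fell by 0.60 (limma adjusted p = 0.0156). Jak1 and Ptpn2 also passed, at -2.25 and 1.27. Another probe of Jak1 above the line showed no such change, with 0.01. The other probe of Ptpn2 was below the line, at a mean of 6.99, and gave -0.02. Stat3, the transducer of interleukin-6 and interleukin-23, had a log2 difference of -0.20 and did not pass (limma adjusted p = 0.843). The calls on this list numbered 2 without either WT smoke array, 1 without either Spp1-/- array and 3 without WT Air replicate 2.

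A further list holds genes of Th17 cells themselves and of the response to interleukin-17. Of its 15 genes with a probe, 9 were below the line, among them Il17a, Il17f, Il21, Il22 and Il23r. Where 21.4% of all genes were called with smoke, limma called 0 of the 6 above the line (1 at an unadjusted p under 0.05). That gene, the receptor chain Il17rc, had a log2 difference of -0.996 (limma adjusted p = 0.0599), and the list's median was -0.06. It passed without WT Air replicate 1 (limma adjusted p = 0.0098), with the floor removed, with the mean of its probes and with an intensity trend in the prior. The mean log2 intensity of the list was 7.14 to 7.18 in Spp1-/- smoke, 7.13 to 7.20 in WT smoke and 7.21 to 7.44 in WT Air.

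Of 18 compared transcription factors that act on the interleukin-12 family and Il6 genes, 5 rose, 1 fell and 12 did not pass with smoke, where 11.1% of all genes rose and 10.3% fell, and the median log2 difference was 0.12 against 0.04 over all kept genes. Irf4, a factor needed by dendritic cells that prime Th17 responses, averaged 9.47 ± 0.02 in WT smoke and 7.82 ± 0.12 in WT Air (log2 difference 1.65, limma adjusted p = 0.00321). Bhlhe40, a repressor that restrains Il10, averaged 13.21 ± 0.10 in WT smoke and 12.05 ± 0.15 in WT Air (log2 difference 1.16, limma adjusted p = 0.00434). Atf3, which represses Il6 and Il12b in mouse macrophages, and the NF-kB subunit gene Relb also rose, by 1.06 (limma adjusted p = 0.00651) and 0.62 (limma adjusted p = 0.0116) on the log2 scale, and each missed the threshold without either WT smoke array. Spi1 rose by 0.50 (limma adjusted p = 0.0264), and Irf1, an activator of Il12a, fell by 0.85 (limma adjusted p = 0.0133). Without WT smoke replicate 1, 2 genes of this list were called.

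A list of other cytokines held 11 compared genes. Of these, 2 rose and 3 fell with smoke (median -0.03), beside 11.1% and 10.3% of all genes. Which cells carried these transcripts was not measured. Csf1, the macrophage growth factor, averaged 8.93 ± 0.22 in WT smoke and 7.52 ± 0.39 in WT Air (log2 difference 1.42, limma adjusted p = 0.0133). Il1rn, the interleukin-1 receptor antagonist, rose by 1.19 (limma adjusted p = 0.0195), and the alarmin Il33 fell by 1.40 (limma adjusted p = 0.014). Osm, an interleukin-6 family cytokine, had -0.91 (limma adjusted p = 0.0339), with 0.12 from a dimmer probe, and Tnfsf13b had -0.97 (limma adjusted p = 0.0491). Fewer of them were called with a WT smoke or an Spp1-/- array left out, as was so over all genes. Il1b and Tnf, which add to Th17 priming, had log2 differences of -0.40 (limma adjusted p = 0.204) and 0.19 (limma adjusted p = 0.665).

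TGF-beta is stored in the matrix or on cells before it is activated. Of 17 compared genes for storage and activation of latent TGF-beta, 0 rose and 4 fell with smoke. Of all genes 21.4% were called, 11.1% higher and 10.3% lower, and the list's median was 0.14. Ltbp4, a matrix protein that stores latent TGF-beta, averaged 8.84 ± 0.49 in WT smoke and 11.84 ± 0.50 in WT Air (limma adjusted p = 0.00504), and Itgb6, the epithelial chain of an activating integrin, averaged 7.81 ± 0.14 in WT smoke and 9.53 ± 0.49 in WT Air (limma adjusted p = 0.00969). The proteases Mmp9 and Plat fell by 1.74 (limma adjusted p = 0.00275) and 1.81 (limma adjusted p = 0.00443), with 0.06 from a dim probe of Plat. Nrros, which anchors latent TGF-beta on myeloid cells, had 0.25 and did not pass (limma adjusted p = 0.29). Without WT Air replicate 2, 7 genes of this list were called, 2 higher and 5 lower. Itgb6 missed the threshold without either WT smoke array.

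Of 5 compared receptor and co-receptor genes, 1 rose and 2 fell, beside 11.1% and 10.3% of all genes. Tgfbr2, the receptor that binds TGF-beta first, averaged 13.74 ± 0.11 in WT smoke and 12.94 ± 0.23 in WT Air (log2 difference 0.80, limma adjusted p = 0.0225), and its 3 dimmer probes gave -0.10, 0.28 and -0.02. The call was lost without WT smoke replicate 1 (limma adjusted p = 0.13) or 2 (0.0895) and without either Spp1-/- array (0.0553). The co-receptor Tgfbr3 fell by 2.29 (limma adjusted p = 0.00128) and the endothelial co-receptor Eng by 1.91 (limma adjusted p = 0.00375). A dim probe of Tgfbr3 gave 0.10.

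Among 8 SMAD transducers and inhibitors, 2 rose and 1 fell (median 0.34), beside 11.1% and 10.3% of all genes. Smad3, the transducer of TGF-beta signals, averaged 9.23 ± 0.10 in WT smoke and 10.46 ± 0.03 in WT Air (log2 difference -1.23, limma adjusted p = 0.00263). The inhibitors Smurf1 and Pmepa1 rose by 1.16 (limma adjusted p = 0.00544) and 0.79 (limma adjusted p = 0.00895), with 0.08 from a dimmer probe of Pmepa1, which missed the threshold without WT smoke replicate 1 (limma adjusted p = 0.0691).

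Of 11 compared TGF-beta target genes, 1 rose and 7 fell, with a median of -1.05, beside 11.1% and 10.3% of all genes. Ccn2, a matrix-associated growth factor, averaged 9.09 ± 0.23 in WT smoke and 11.91 ± 0.49 in WT Air (log2 difference -2.82, limma adjusted p = 0.00358). Col3a1 fell by 1.95 (limma adjusted p = 0.0026), with 0.06 from a dim probe, and the smooth muscle actin Acta2 by 1.43 (limma adjusted p = 0.016). Of the other Acta2 probes, the brightest also gave -1.43 and the 4 dimmer ones gave -0.15 to 0.03, and the call was lost without WT smoke replicate 1 (limma adjusted p = 0.0854) or 2 (0.0943). Col1a2, Id1 and Id3 fell by 1.12, 0.53 and 1.05 (limma adjusted p = 0.0185, 0.039 and 0.0262). The 1 gene that rose was Id2, by 1.16 (limma adjusted p = 0.00308). Its other probes, both above the line, gave -0.21 and 0.78. The call was lost with the mean of its probes (limma adjusted p = 0.152). Tgfbi, a target expressed by macrophages, had 0.13 and did not pass (limma adjusted p = 0.479). The calls numbered 3 without either WT smoke array and 4 without either Spp1-/- array. Several of these targets, Col1a2, Col3a1 and Acta2 among them, are also on the fibroblast and smooth muscle marker list.

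Markers of other lung cells moved in the same contrast as the members, and their part in the results was not tested. Of all genes, 11.1% were higher and 10.3% lower in it. All 11 compared fibroblast and smooth muscle genes were lower with smoke (median -1.95), as were 7 of 9 endothelial genes (median -2.54), 11 of 13 epithelial genes (median -1.85), 5 of 6 B cell genes (median -0.94), 5 of 5 platelet genes (median -1.62) and 2 of 2 mesothelial genes (median -1.66). Of 5 compared T cell genes 3 were lower, with Cd3d and Cd3e of the T cell receptor complex at -1.42 and -1.49 (limma adjusted p = 0.0104 and 0.0126), and 1, the interleukin-7 receptor gene Il7r, was higher. Of 4 compared genes of NK and cytotoxic lymphocytes 1 was lower. Of 7 compared neutrophil genes 1 was higher and 1 lower (median -0.36). The 7 compared genes of monocytes and interstitial macrophages also had 1 higher and 1 lower (median -0.09). Pdgfra and Bgn of mesenchymal cells had log2 differences of -2.54 and -2.76, with 0.07 from a dimmer probe of Pdgfra, and the endothelial genes Tek and Emcn had -2.29 and -2.75. The mean log2 intensity of the fibroblast and smooth muscle list was 8.63 to 8.97 in Spp1-/- smoke, 8.64 to 8.76 in WT smoke and 10.41 to 10.58 in WT Air, so that it was highest in WT Air, as Tgfb3 was. For endothelium it was 8.81 to 9.10 in Spp1-/- smoke, 8.95 to 9.17 in WT smoke and 10.94 to 11.18 in WT Air. The epithelial list had 9.46 to 9.66 in Spp1-/- smoke, 9.47 to 9.89 in WT smoke and 11.31 to 11.57 in WT Air. The platelet list had 8.68 to 8.79 in Spp1-/- smoke, 8.74 to 9.42 in WT smoke and 10.62 to 10.90 in WT Air. The mesothelial list had 7.27 to 7.39 in Spp1-/- smoke, 7.28 to 7.43 in WT smoke and 8.35 to 8.58 in WT Air. For T cells the list mean was 8.33 to 8.34 in Spp1-/- smoke, 8.29 to 8.39 in WT smoke and 8.55 to 8.59 in WT Air, and for NK and cytotoxic lymphocytes 8.22 to 8.36 in Spp1-/- smoke, 8.27 to 8.33 in WT smoke and 8.62 to 8.78 in WT Air. Markers of alveolar macrophages ran the other way, at 11.49 to 11.62 in Spp1-/- smoke, 11.42 in both WT smoke arrays and 11.25 to 11.31 in WT Air, and 3 of the 10 rose while 2 fell. The mean of the dendritic cell list lay between 8.65 and 8.78 on all arrays, but its called genes moved in opposite directions. Itgae, an integrin chain of airway dendritic cells and of intraepithelial T cells, averaged 10.66 ± 0.17 in WT smoke and 8.62 ± 0.54 in WT Air (log2 difference 2.05, limma adjusted p = 0.00899), and Dpp4 averaged 9.20 ± 0.05 in WT smoke and 11.33 ± 0.22 in WT Air (log2 difference -2.13, limma adjusted p = 0.0023), with -0.19 from a dimmer probe. Itgae missed the threshold without either WT smoke array (limma adjusted p = 0.0567 and 0.0635). Without WT smoke replicate 1 the calls numbered 6 on the fibroblast list, 6 on the epithelial, 2 on the B cell, 2 on the platelet and 1 on the alveolar macrophage list. Without WT smoke replicate 2 they numbered 7 on the fibroblast list, 7 on the epithelial and 3 on the B cell list, and without either Spp1-/- array 2 on the platelet list. The T cell calls numbered 0 without either WT smoke array and 2 without either Spp1-/- array, the mesothelial and the dendritic cell calls 1 each without either WT smoke array, the dendritic cell calls 4 without WT Air replicate 1, and the NK calls 0 without WT smoke replicate 1 or either Spp1-/- array.

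**Figure D3:**
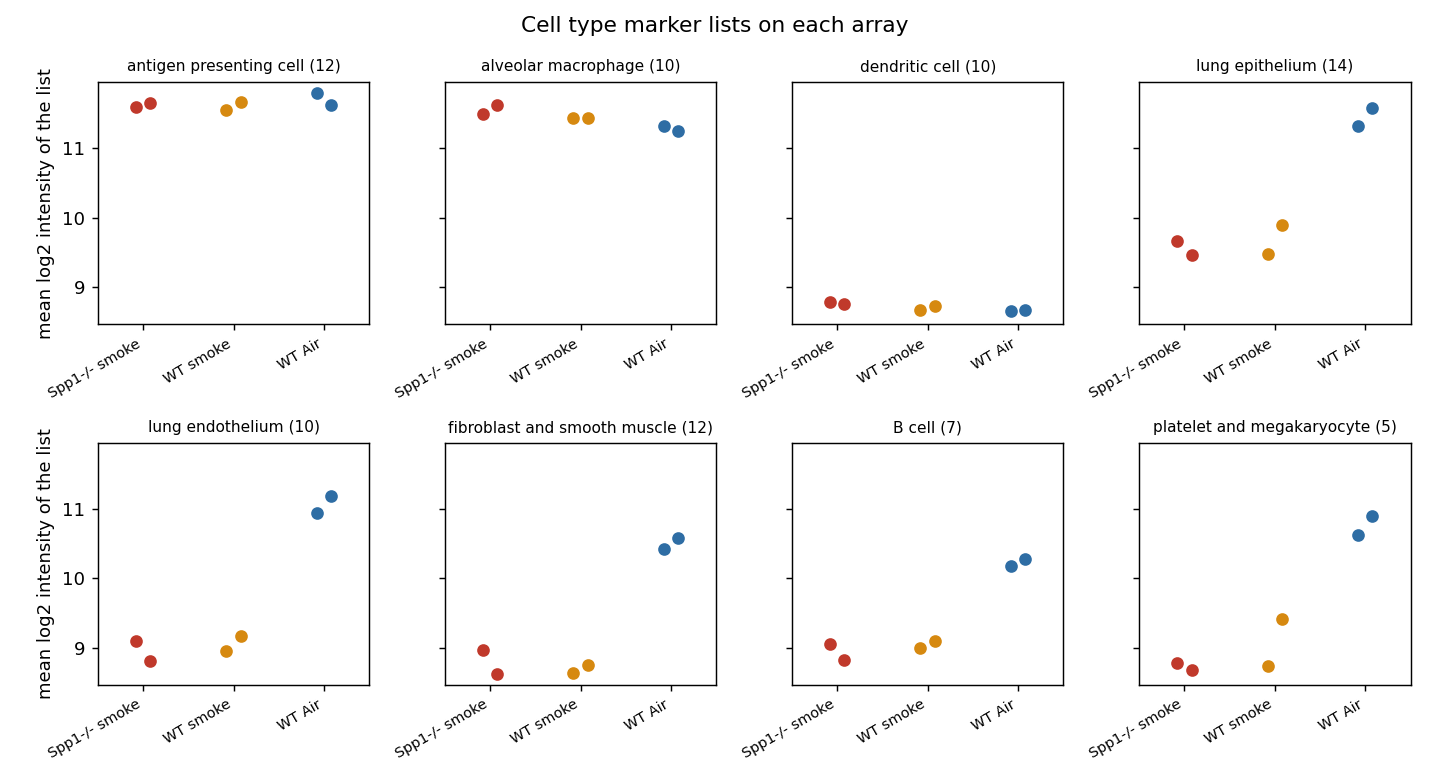
Mean log2 intensity of 8 of the cell type marker lists on each array (dots) in Spp1-/- smoke, WT smoke and WT Air, with the number of genes with a probe in parentheses. The epithelial, endothelial, fibroblast, B cell and platelet lists drawn here lie higher in WT Air than in either smoke group, and the mean levels of the antigen presenting cell and dendritic cell lists differ little, with called genes in both directions on each.

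In the genotype contrast under smoke no pathway gene passed. Over the 9 pathway lists, limma called 0 of 94 compared genes, beside 0% of all genes. Of the 94, 4 had an unadjusted limma p under 0.05, beside 4.36% of all genes. The medians of the lists lay between -0.07 and 0.03. Irf7, a regulator of the interferon response, was farthest from 0 among the named genes, with 8.92 ± 0.31 in Spp1-/- smoke and 7.21 ± 0.11 in WT smoke (log2 difference 1.71, 95% interval 1.21 to 2.21, limma adjusted p = 0.212). Mmp2, a protease able to activate latent TGF-beta, averaged 11.59 ± 0.22 in Spp1-/- smoke and 10.83 ± 0.01 in WT smoke (log2 difference 0.76, limma adjusted p = 1). Pmepa1 and Tgfbi, both induced by TGF-beta, had log2 differences of -0.26 (95% interval -0.54 to 0.01) and -0.20 (95% interval -0.47 to 0.07). A dimmer probe of Pmepa1, also above the line, gave 0.01. The median over the 11 compared TGF-beta target genes was -0.02. Stat5a had -0.33, Il11 0.40, Tgfbr3 0.24, Il6st -0.10 and Rora 0.10. The fibroblast and platelet marker lists had medians of 0.15 and -0.37 here, with 0 genes called on any marker list. Of 100 compared marker genes, 5 had an unadjusted limma p under 0.05, beside 4.36% of all genes.

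Against WT Air, the Spp1-/- smoke arrays gave pathway list counts near those of WT smoke, with the same air arrays behind both. Of all genes 22.6% were called there, 12.2% higher and 10.5% lower. Receptors of the interleukin-12 family and interleukin-6 had 0 higher and 2 lower, JAK-STAT genes 2 and 2, the Th17 list 0 and 0 (1 at an unadjusted p under 0.05), and transcription factors 6 and 1. Socs3 averaged 11.23 ± 0.02 in Spp1-/- smoke and 9.37 ± 0.12 in WT Air (limma adjusted p = 0.00184), and Irf4 9.17 ± 0.24 in Spp1-/- smoke and 7.82 ± 0.12 in WT Air (limma adjusted p = 0.00485). TGF-beta target genes had 1 higher and 7 lower. Among 7 compared neutrophil markers 1 was higher and 4 were lower (median -0.88), beside 1 and 1 for WT smoke. Mmp2 was higher in Spp1-/- smoke than in WT Air, at 11.59 ± 0.22 and 10.12 ± 0.53 (limma adjusted p = 0.0192).

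Genes whose log2 values ran most alike over the 6 arrays were taken from 11965 candidates by Pearson correlation, as a description with no test, since all share the same arrays and group differences. Tgfb3 ran most like Mxra8, Csrp3 and Ets1 (r = 0.999 each). Tgfb1 ran most like Ndufs8 (r = 0.997), Chrac1 and Syt8 (r = 0.993 each), and Ebi3 most like Slf2 (r = 0.998), Gfi1 and Akap13 (r = 0.997 each). Tgfb2 ran most like Mterf1b, P4ha2 and Dync2li1 (r = 0.995, 0.994 and 0.992), and Il12a most like Ptk7, Cbr3 and Secisbp2 (r = 0.994, 0.985 and 0.979).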

How the data were processed

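The values used were the log2 intensities that the authors deposited for 45281 probes on 6 arrays, with groups taken from the titles. Trizol extraction and an Ambion MessageAmp kit for biotinylated cRNA preceded hybridisation, per the labels' protocols. The submitters' processing notes name limma, with no version, and the background correction was not given in the sources used here. Sorted columns differed by at most 0.0056, as after quantile normalization. A further table with 12 columns of per-sample values was not used, because their names could not be matched to the labels. Arrays carry no read depth, and their number limits the precision.

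Probes were named from the platform annotation (34885 with 1 symbol, 18 with several, 10378 not named here), and 34807 symbols were updated by Entrez identifier through RefSeq (GRCm38.p6). Each gene was taken by its brightest probe and kept at or above the median of probe means. Groups were compared with limma 3.58.1 in R 4.3.3 (1 coefficient per group over all 6 arrays, empirical Bayes moderation) with Benjamini-Hochberg adjustment over the 12382 kept genes. The fit had 3 residual degrees of freedom and a prior worth 2.24 more. Genes near the floor were read from a fit with no filter. An exact permutation of 2 against 2 arrays cannot go below p = 0.333, so none was used. The procedure was tested on simulated data.

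The members and lists were chosen with earlier results of these data known. The rule for named genes took, per comparison, up to 4 called genes with the smallest p of each pathway list, or the gene with the smallest p where none was called, and up to 2 called genes of each marker list for smoke against air. Outside this rule, other genes were chosen after their values were seen. For smoke against air these were Il6ra, Stat3, Stat5a, Spi1, Irf1, Il1b, Tnf, Tnfsf13b, Nrros, Col1a2, Id1, Id3, Tgfbi and Il7r. Mmp2 for Spp1-/- smoke against WT Air and the receptor and Th17 genes near the floor were chosen in the same way. Counts of named and called genes given below cover only genes that the rule took, some of which are not printed here. Alternatives were other filters, averaged probes, a robust trended prior, weighted arrays, a fit of only the groups compared, a replicate block, an offset of 16 in place of the floor, centring, and leaving out each array in turn.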

Additional observations from a re-analysis of the deposited data

How the results depend on the processing

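Tgfb1 and Tgfb3 kept direction and call with smoke in wild type under the settings tried that kept them. With the filter raised to the brighter 25% of probes Tgfb3 was not among the genes compared, which left 2 members called. Members called with smoke numbered 2 to 4 with 1 array left out, and in Spp1-/- smoke against WT Air 1 to 4, the lowest without either Spp1-/- array. In the genotype contrast under smoke no member was called in any setting. A group left with a single array was taken to have the spread of the other groups. Such an array adds nothing to that spread, so for the other 2 groups the fit equals the fit of only those groups.

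Over all genes, 2645 were called for WT smoke against WT Air, 1489 with only those groups fitted, and 743 to 3858 with 1 array left out. For Spp1-/- smoke against WT Air the count was 2804, then 1842 with only those groups and 673 to 4035 with 1 array left out. For Spp1-/- smoke against WT smoke it was 0, then 8 in the brighter 25% of probes, 7 with an intensity trend, 9 with array weights, 6 with only those groups and 0 to 6 with 1 array left out, all higher in Spp1-/- smoke.

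Reversed signs were seen in the genotype contrast for values close to 0, none of which passed. Il12a was -0.20 to 0.12 with 1 array left out: 0.12 without WT smoke replicate 2 and 0.03 without Spp1-/- smoke replicate 2. Tgfb2 was -0.0083 when centred, -0.0048 without WT smoke replicate 2 and -0.12 without Spp1-/- smoke replicate 1, in a range of -0.12 to 0.13 with 1 array left out. Rora was -0.016 with the mean of its probes and -0.0032 without WT smoke replicate 1, in a range of -0.0032 to 0.20 with 1 array left out. The cause was not tested.

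Of 53 list genes named and called with smoke, 24 missed the threshold without WT smoke replicate 1, 22 without WT smoke replicate 2, 9 without either Spp1-/- array, 4 without WT Air replicate 2 and 0 without WT Air replicate 1, and all kept their sign. For Spp1-/- smoke against WT Air, 13 of 29 missed it without Spp1-/- smoke replicate 1, 16 without Spp1-/- smoke replicate 2, 6 without either WT smoke array, 3 without WT Air replicate 2 and 0 without WT Air replicate 1.

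Whether replicate numbers pair the samples was not given by the labels. Deviations of same-numbered arrays correlated with r = 0.137 for WT smoke and WT Air, -0.082 for Spp1-/- smoke and WT Air and -0.029 for Spp1-/- smoke and WT smoke. With 2 arrays per group these values cannot settle pairing. With the replicate block, 2248, 0 and 2367 genes were called for WT smoke against WT Air, Spp1-/- smoke against WT smoke and Spp1-/- smoke against WT Air, with 3, 0 and 3 members, and no member call changed.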
